A study of Rattus norvegicus with 3 samples.

Results

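The small leucine-rich proteoglycans were examined in RNA of the acellular fraction of rat spinal cord, with and without a contusion. The members were given by name as DCN, LUM, OGN, FMOD, BGN, PRELP, ASPN, OMD, KERA and CHAD, and were looked up by gene symbol. Of these 10 genes, 8 have an entry among the 12758 symbols of the deposited table, and KERA and CHAD have none. The rats were 3-month-old female Sprague Dawley animals. Both groups had a laminectomy at T9, and only the SCI animals then received a contusion, described as moderate to severe. About 2 mm of cord at T8, just rostral to the injury, was taken 24 h later, digested at 6°C with a protease active in the cold, and centrifuged so that the supernatant could be sequenced without the pelleted cells. By the labels, SCI has 1 library and No-SCI has 2, although the methods of the study state 2 animals per condition. For each group the table holds 1 value in FPKM (fragment counts scaled by transcript length and by the mapped reads) and none for a library, so the values below are the authors' group values. They have no SD and no interval, the methods state 1 sequencing depth for all samples while the table gives no read count behind a value, and no difference could be tested against the spread between animals. The fraction was taken from whole excised tissue, and no cell type was sorted.

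Small leucine-rich proteoglycans are secreted matrix proteins whose core is a curved stack of leucine-rich repeats, most of them carrying chondroitin, dermatan or keratan sulfate chains. They bind collagen fibrils and set their diameter and spacing, and several also hold growth factors such as TGF-beta or act on cell surface receptors. In the adult cord they are known mainly as products of meningeal and perivascular fibroblasts, and lumican, fibromodulin, prolargin and chondroadherin have been described as matrix components that hinder regrowth of central axons. By the usual division of the family DCN, BGN and ASPN are class I, LUM, FMOD, PRELP, OMD and KERA class II, OGN class III and CHAD class IV.

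Most of the listed members were higher after SCI. Of the 8 genes, 7 had a higher and 1 a lower group value in SCI than in No-SCI, and 4 of them (DCN, PRELP, LUM and OGN) were at least 2-fold higher while none was at least 2-fold lower. Over all 12771 entries, 43.7% were higher in SCI by any amount, 7.96% were at least 2-fold higher and 12.1% at least 2-fold lower. Among the 5736 entries whose No-SCI value lay within the range of the members, 1.5 to 15.1 FPKM, the shares were 11.5% higher and 11.1% lower. The median log2 ratio (SCI over No-SCI) was 1.32 for the members, against −0.12 for all entries and −0.11 for the entries in that range.

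**Figure D1:**
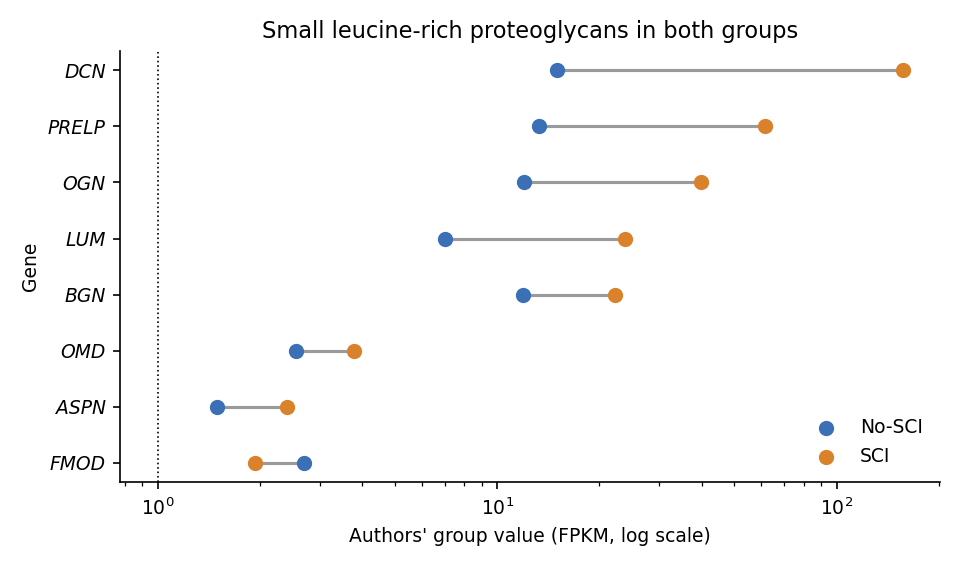
Authors' FPKM value of each listed member in No-SCI (blue) and SCI (orange) on a log axis, with a line joining both values of a gene and a dotted line at 1 FPKM, the lowest value in the table. DCN has the longest line, from 15.1 to 156 FPKM, and FMOD is the one gene whose SCI value lies left of its No-SCI value.

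Among the class I genes, DCN encodes decorin, which carries a chondroitin or dermatan sulfate chain, coats collagen fibrils and binds TGF-beta. DCN had 15.1 FPKM in No-SCI and 156 FPKM in SCI, a 10.4-fold higher value (log2 ratio 3.38). This ratio ranked 36 from the top among all entries, and the gene moved from percentile 46.9 of the No-SCI levels to percentile 89.8 of the SCI levels. BGN, the gene of biglycan, is the closest relative of decorin and is known as a ligand of the Toll-like receptors TLR2 and TLR4. BGN had 11.9 FPKM in No-SCI and 22.3 FPKM in SCI, which is 1.87-fold higher (log2 ratio 0.91) and lies just short of 2-fold. It passed 2-fold once the median ratio of all entries was centred at 0 (log2 ratio 1.02) or the upper quartiles were set equal (1.01). ASPN encodes asporin, a member with an aspartate-rich start and no sugar chain of this kind. ASPN was near the lowest value of the table, with 1.5 FPKM in No-SCI and 2.41 FPKM in SCI (log2 ratio 0.68). A further entry, ASPNL1, carries a symbol that the GRCr8 reference gives as a synonym of Aspn, and it had 1.70 FPKM in No-SCI and 1.89 FPKM in SCI (log2 ratio 0.16).

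Among the class II genes, PRELP encodes prolargin, which binds heparan sulfate through a basic start and links basement membranes to the underlying matrix. PRELP had 13.2 FPKM in No-SCI and 61.7 FPKM in SCI, a 4.66-fold higher value with a log2 ratio of 2.22. LUM encodes lumican, a keratan sulfate proteoglycan that keeps collagen fibrils thin and evenly spaced in the cornea. LUM had 7.02 FPKM in No-SCI and 23.8 FPKM in SCI, which is 3.38-fold higher (log2 ratio 1.76). OMD, the gene of osteomodulin, an acidic protein of bone matrix, had 2.55 FPKM in No-SCI and 3.78 FPKM in SCI (log2 ratio 0.56). FMOD encodes fibromodulin, which shares its collagen site with lumican and is abundant in tendon. FMOD was the one listed member with a lower value in SCI, 1.93 FPKM against 2.69 FPKM in No-SCI, a 1.39-fold difference (log2 ratio −0.48). OMD and FMOD both lay within 3 FPKM of the lowest value of the table in each group, whereas PRELP and LUM were well above it.

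The class III gene OGN encodes osteoglycin, also called mimecan. OGN had 11.99 FPKM in No-SCI and 39.9 FPKM in SCI, a 3.33-fold higher value whose log2 ratio of 1.73 lies next to the 1.76 of LUM. The log2 ratios of PRELP, LUM and OGN ranked 164, 302 and 315 from the top among the 12771 entries.

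**Figure D2:**
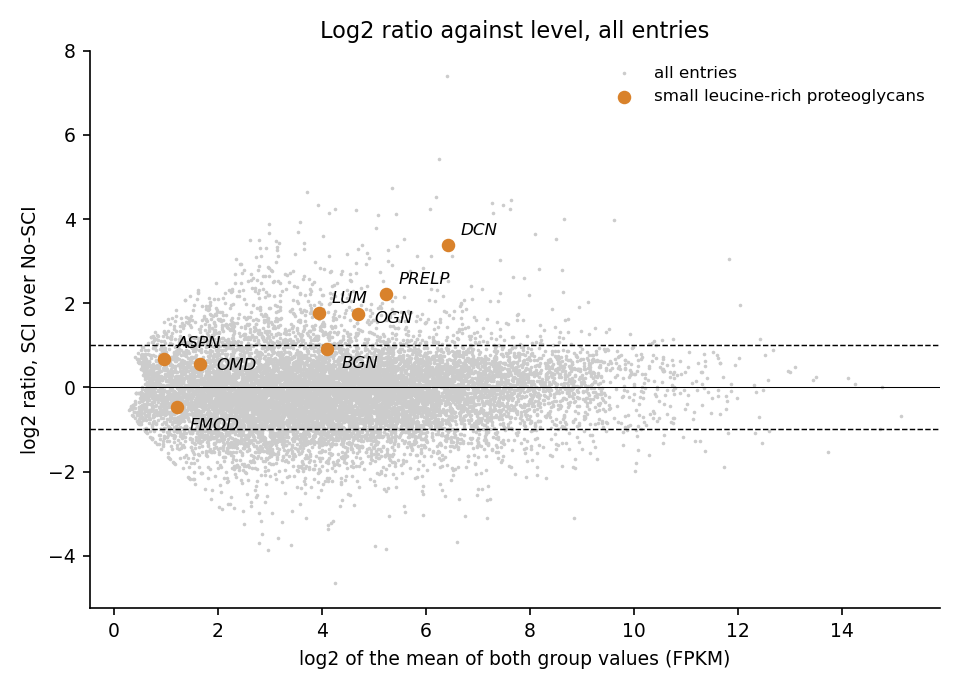
Log2 ratio of SCI to No-SCI against the log2 of the mean of both FPKM values, for all 12771 entries (grey) and the 8 listed members (orange), with dashed lines at a 2-fold difference. DCN, PRELP, LUM and OGN lie above the upper dashed line, BGN just under it, and ASPN, OMD and FMOD at the low end of the level axis.

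The count of members depends on the fold asked for, and the share of all entries moves with it. At a minimum of 1.3-fold, the value in the methods of the study, 7 of the 8 members were higher against 24.6% of all entries, and 1, FMOD, was lower against 35.7% of all entries. At 1.5-fold 6 members were higher against 16.9% of all entries. At 4-fold 2 members were higher, DCN and PRELP, against 1.69% of all entries.

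Values near 1 FPKM carry a further limit. No value in the table lies below 1, and with 1 subtracted from both values, a setting chosen after the values were seen, ASPN was 0.50 FPKM in No-SCI and 1.41 FPKM in SCI and passed 2-fold (log2 ratio 1.49). The count was then 5 of 8 members at least 2-fold higher against 10.4% of the 12716 entries that stayed above 0. OMD moved to a log2 ratio of 0.84 and FMOD to −0.85 under this setting. The ratio of DCN moved to 3.47 only.

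**Figure D3:**
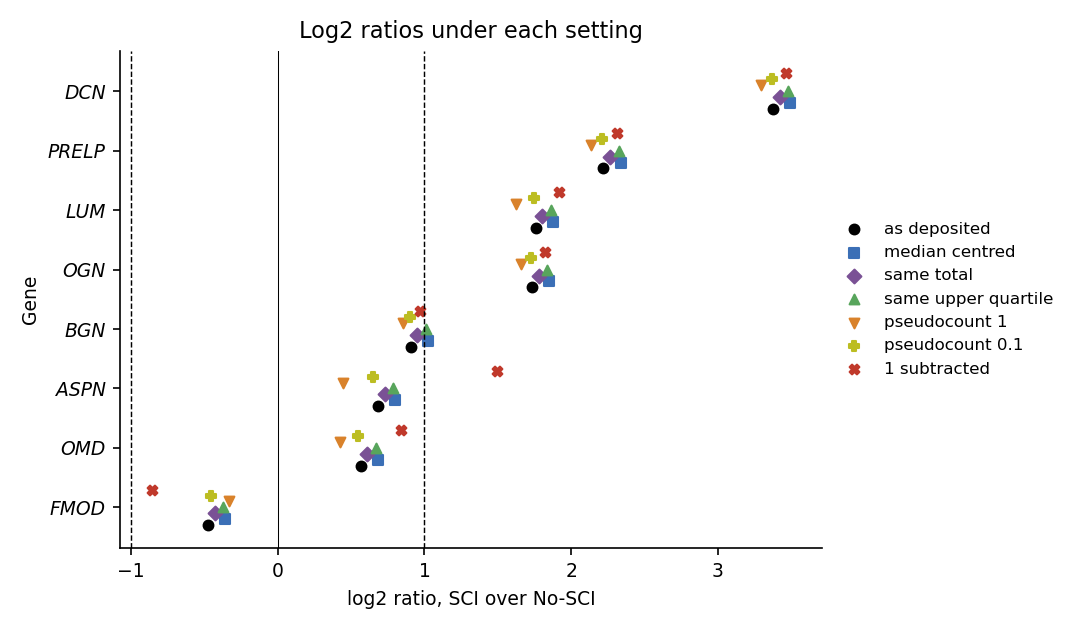
Log2 ratio of SCI to No-SCI for each listed member as deposited and under 3 scalings, 2 pseudocounts and the subtraction of 1, with dashed lines at a 2-fold difference. No member changes sign, DCN spans 3.29 to 3.49, and ASPN spans 0.45 to 1.49.

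FPKM is scaled by transcript length, so levels of different members can be set side by side. In No-SCI the order was DCN, PRELP, OGN, BGN, LUM, FMOD, OMD and ASPN. The top 4 lay close together, DCN being 1.14 times PRELP, PRELP 1.10 times OGN and OGN 1.01 times BGN, and without a spread these neighbours cannot be ordered. The same holds for FMOD and OMD, whose No-SCI levels differed by a factor of 1.05. LUM was 2.61 times the next lower gene, FMOD, and the whole span from DCN to ASPN was 10.03-fold. In SCI the values ran DCN, PRELP, OGN, LUM, BGN, OMD, ASPN and FMOD. DCN was then 2.53 times PRELP, LUM was 1.07 times BGN, and the span from DCN to FMOD was 80.8-fold. Both spans rest on values near 1 FPKM, and with 1 subtracted they were 28.1-fold and 166-fold.

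The summed level of the 8 members was 65.9 FPKM in No-SCI and 312 FPKM in SCI, a 4.73-fold higher value. DCN made up 22.8% of the sum in No-SCI and 50.1% in SCI. BGN made up 18.0% and 7.14%, and PRELP 20.1% and 19.8%. With DCN left out, the sum went from 50.9 to 156 FPKM, a 3.06-fold difference, so DCN alone moves this value by more than 1.5 times.

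**Figure D4:**
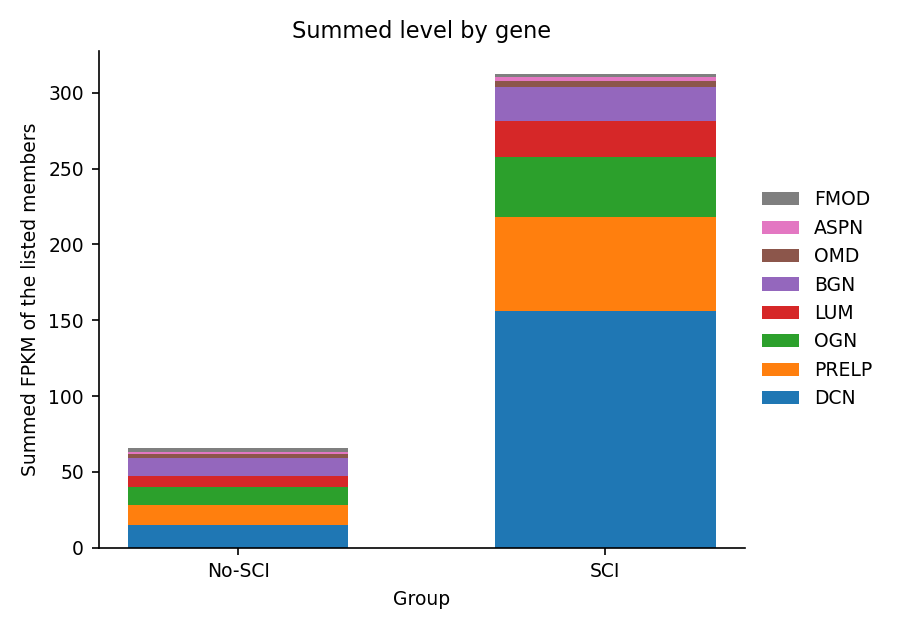
Summed FPKM of the 8 listed members in No-SCI and SCI, stacked by gene from the most abundant in SCI at the bottom. DCN fills 22.8% of the No-SCI bar of 65.9 FPKM and 50.1% of the SCI bar of 312 FPKM.

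Most listed members that are neighbours in the genome had unlike ratios, though FMOD, OMD and ASPN lay near 1 FPKM. Neighbouring genes over all entries were not compared. In the GRCr8 rat reference Dcn, Lum and Kera are adjacent protein-coding genes on chromosome 7, Ogn, Omd and Aspn on chromosome 17, and Prelp and Fmod on chromosome 13, each with 0 protein-coding genes between neighbours. The group values were made on another assembly, so only this order is used. PRELP and FMOD differed most within a pair, with a log2 ratio larger by 2.70 in PRELP. The log2 ratio of DCN was larger than that of LUM by 1.62, and that of OGN was larger than that of OMD by 1.17, while OMD and ASPN differed by −0.12. With 1 subtracted the log2 ratios of OGN and OMD were 1.82 and 0.84, and those of OMD and ASPN 0.84 and 1.49. Cenpp, a centromere protein gene, overlaps Ogn, Omd and Aspn in that reference. CENPP had 8.84 FPKM in No-SCI and 11.9 FPKM in SCI (log2 ratio 0.42), and since the sources used here do not give whether reads were counted by strand, reads shared between it and these 3 members cannot be told apart. The same limit holds for DCN, PRELP and FMOD, each overlapped by a long non-coding RNA gene in that reference, and for ASPN, also overlapped by a pseudogene, and none of these 4 genes has an entry under its reference symbol.

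The promoters of LUM and OGN, which had nearly the same ratio, and of FMOD, the one member with a lower value, are shown for comparison. Each is the 250 bases before the annotated start in RefSeq (build GRCr8), read 5′ to 3′ on the strand of the gene, and of the 10 members 7 matched this promoter table, all but DCN, BGN and PRELP. Capitals mark matches on either strand to any of 6 motifs. These are the TATA box with the letters TATAAA, the CCAAT box, the GC box with the letters GGGCGG, the AP-1 site with the letters TGANTCA, the forkhead core with the letters GTAAACA, and the SMAD element with the letters CAGAC. LUM lies at chr7:34245456-34245705 on the + strand, OGN at chr17:15258996-15259245 on the − strand, and FMOD at chr13:48045317-48045566 on the + strand.
LUM: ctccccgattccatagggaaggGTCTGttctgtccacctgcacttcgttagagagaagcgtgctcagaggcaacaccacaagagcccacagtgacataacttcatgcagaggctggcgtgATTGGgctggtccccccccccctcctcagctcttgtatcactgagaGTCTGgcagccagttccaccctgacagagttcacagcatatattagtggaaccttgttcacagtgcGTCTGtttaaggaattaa
OGN: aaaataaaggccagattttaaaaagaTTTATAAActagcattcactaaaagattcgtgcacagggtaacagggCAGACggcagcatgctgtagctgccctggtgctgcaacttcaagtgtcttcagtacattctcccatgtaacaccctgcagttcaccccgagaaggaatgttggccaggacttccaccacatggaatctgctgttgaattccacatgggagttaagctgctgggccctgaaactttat
FMOD: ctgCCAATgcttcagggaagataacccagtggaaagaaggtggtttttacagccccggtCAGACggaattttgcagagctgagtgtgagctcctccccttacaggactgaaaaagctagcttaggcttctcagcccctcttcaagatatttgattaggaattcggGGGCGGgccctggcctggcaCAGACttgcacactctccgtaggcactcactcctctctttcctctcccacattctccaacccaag

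CAGAC was found in all 3 of these promoters, 3 times in LUM (228, 84 and 18 bases before the start), 1 time in OGN (177 bases before) and 2 times in FMOD (191 and 65 bases before), and in none of the other 4 members with a promoter. It is a short motif that 42.9% of all 33469 promoters of this length hold. CCAAT was found in LUM, FMOD and KERA (34.0% of all promoters), GGGCGG in FMOD and CHAD (30.5%), and TATAAA in OGN and CHAD (12.9%). The OGN match consists of 2 overlapping copies on opposite strands, 224 and 222 bases before the start, and the CHAD match begins 29 bases before it. TGANTCA and GTAAACA, which 6.34% and 3.21% of all promoters hold, were found in 0 of the 7. CAGAC was thus present in LUM and OGN, which were higher in SCI, and in FMOD, which was lower, and absent from ASPN and OMD, and a match of letters does not show that a factor binds.

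Of 9 further genes of the family, 3 have an entry. CHADL, a chondroadherin-like gene that restrains collagen fibril formation, had 9.997 FPKM in No-SCI and 20.1 FPKM in SCI (log2 ratio 1.01), which falls short of 2-fold with a pseudocount of 1. NYX, the gene of nyctalopin, a protein of retinal synapses, had 1.18 and 1.86 FPKM (log2 ratio 0.66), and TSKU, the gene of the secreted signalling regulator tsukushi, had 13.95 and 12.5 FPKM (log2 ratio −0.16). EPYC, OPTC, PODN, PODNL1, ECM2 and ECMX have no entry.

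The collagens to which the members bind were mostly higher too, at much lower levels. Of 14 fibrillar and fibril-associated collagen genes 9 are listed, 6 of them at least 2-fold higher (3 when entries with a mean under 5 FPKM are left out) and 0 at least 2-fold lower, with a median log2 ratio of 1.44. COL3A1 had 2.32 FPKM in No-SCI and 11.5 FPKM in SCI (log2 ratio 2.31), COL6A2 had 4.42 and 18.5 FPKM (2.06), and COL1A2 had 2.12 and 6.43 FPKM (1.60). COL5A3, the most abundant of them in No-SCI, had 6.15 FPKM there and 4.27 FPKM in SCI (−0.53). The summed level of the 8 members was 258% of that of the 9 collagens in No-SCI and 488% in SCI.

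Among 28 genes of fibril assembly and cross-linking 22 are listed, 10 of them at least 2-fold higher and 0 at least 2-fold lower, with a median log2 ratio of 0.84. LOXL1, a lysyl oxidase that cross-links elastin and collagen, had 1.93 FPKM in No-SCI and 13.9 FPKM in SCI (log2 ratio 2.85). PCOLCE2 and PCOLCE, which enhance the trimming of procollagen, had log2 ratios of 2.55 and 2.28. SPARC, the most abundant gene of this list, was at 271 and 267 FPKM (log2 ratio −0.02), a sign that flips under each of the 3 scalings.

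The enzymes that build the sugar chains had median log2 ratios nearer to that of all entries than the core proteins had. Of 22 chondroitin and dermatan sulfate genes 18 are listed, 1 at least 2-fold higher and 1 at least 2-fold lower, with a median log2 ratio of −0.15. The higher one was DSE, an epimerase that turns chondroitin into dermatan sulfate, with 7.75 FPKM in No-SCI and 16.8 FPKM in SCI (log2 ratio 1.11). The lower one was CSGALNACT1, which starts the chondroitin chain, with 46.7 and 22.6 FPKM (log2 ratio −1.05). DSEL, a further epimerase of this list, went the other way from DSE, with 2.92 and 1.73 FPKM (log2 ratio −0.75). The count of genes at least 2-fold lower was 0 with the median centred or the upper quartiles set equal, and 4 with 1 subtracted. Of 13 keratan sulfate genes 10 are listed, with a median log2 ratio of 0.19, and the 1 past 2-fold was ST3GAL3, a sialyltransferase (5.80 and 12.3 FPKM, log2 ratio 1.09), a call that is lost with a pseudocount of 1.

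Of 22 genes for growth factors held by the family and their receptors, 16 are listed, 3 at least 2-fold higher and 1 at least 2-fold lower. Their median log2 ratio of −0.02 flips in sign under each of the 3 scalings, to 0.10 with the median of all entries centred. CCN2, connective tissue growth factor, to which decorin binds, had 2.34 FPKM in No-SCI and 23.0 FPKM in SCI (log2 ratio 3.30). BMP4 had 28.4 and 84.3 FPKM (1.57) and PDGFA 72.3 and 159 FPKM (1.14). TGFBR1, a TGF-beta receptor, had 4.96 and 2.21 FPKM (−1.17), a call that is lost with a pseudocount of 1 or when entries with a mean under 5 FPKM are left out, and TGFB3, the most abundant ligand of the list, had 180 and 188 FPKM (0.06).

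Of 15 innate immune receptors and complement partners of the family, 12 are listed, 2 of them at least 2-fold higher, with a median log2 ratio of 0.23. These were CD14, the co-receptor of TLR2 and TLR4 for biglycan (18.1 and 60.9 FPKM, log2 ratio 1.75), and C1QC (61.0 and 136 FPKM, log2 ratio 1.16). C1QA (68.1 and 92.9 FPKM, log2 ratio 0.45) and C1QB (95.7 and 151 FPKM, log2 ratio 0.66) stayed under 2-fold. TLR2 itself had 5.21 and 4.12 FPKM (−0.34) and TLR4 had 1.44 and 1.99 FPKM (0.46). CD44, the most abundant gene of this list, had 309 and 184 FPKM (−0.75). Of 18 proteinases that cleave the members and their inhibitors, 11 are listed, 4 at least 2-fold higher and 1 at least 2-fold lower, with a median log2 ratio of 0.50. HTRA1, a secreted serine protease that cuts decorin and biglycan, had 8.35 FPKM in No-SCI and 36.5 FPKM in SCI (2.13), and TIMP1 had 208 and 780 FPKM (1.91). MMP3, stromelysin, had 38.5 and 6.65 FPKM (−2.53).

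**Figure D5:**
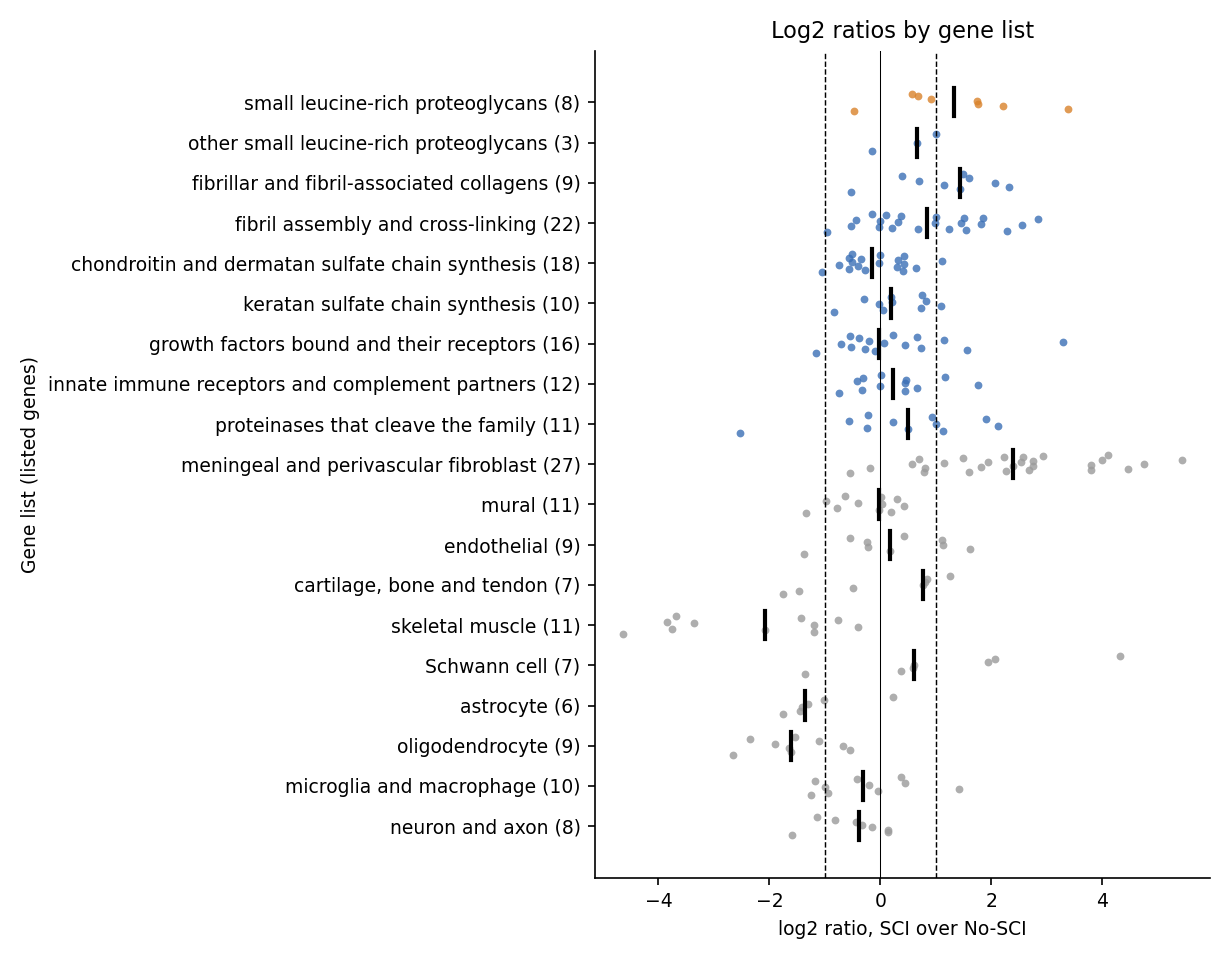
Log2 ratio of SCI to No-SCI for each listed gene (points) of the members (orange), 8 lists of related matrix genes (blue) and 10 cell type marker lists (grey), with black bars at the medians, dashed lines at a 2-fold difference and the number of listed genes in brackets. The members have a median of 1.32, next to the 1.44 of the collagens, and the fibroblast markers lie furthest to the right with a median of 2.38.

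Markers of fibroblasts were higher together with the members. Of 31 meningeal and perivascular fibroblast markers 27 are listed (TBX18, SLC22A6, SLC47A1 and LAMA2 have no entry), and 21 of them were at least 2-fold higher and 0 at least 2-fold lower, with a median log2 ratio of 2.38. COL1A1, COL1A2 and DPT stand in this list as well as in those of the collagens or of fibril assembly, and CLDN11 stands in that of oligodendrocytes too. The summed level of the 27 fibroblast markers was 225 FPKM in No-SCI and 2108 FPKM in SCI. OSR1, IGFBP6 and CRABP2 had log2 ratios of 5.43, 4.74 and 4.46, and MGP, the most abundant (an inhibitor of calcification), had 47.5 and 757 FPKM (3.99). The other 6 listed markers stayed within 2-fold. PDGFRA, PDGFRB, FBLN1 and CDH1 were higher in SCI, with log2 ratios of 0.70, 0.79, 0.57 and 0.80. PI16 (−0.18) and CLDN11 (24.5 and 16.7 FPKM, −0.55) were lower. The log2 ratio of DCN was below those of 7 of the 27 markers and above those of 20, that of PRELP was below 16, and those of LUM and OGN were each below 18. The log2 ratios of BGN, ASPN, OMD and FMOD were below those of 21, 24, 25 and 26 of the 27 markers. The summed level of the members was 29.3% of that of the markers in No-SCI and 14.8% in SCI. The part of the fibroblast markers in the values of the members was not tested, and in bulk RNA a larger share of RNA from a cell type and more RNA per cell cannot be told apart.

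Markers of muscle and of 2 glial cell types were mostly lower in SCI. Of 12 skeletal muscle markers 11 are listed and 9 were at least 2-fold lower in SCI, with a median log2 ratio of −2.09 and a summed level of 450 FPKM in No-SCI and 59.4 FPKM in SCI. MYH1 and MYH2, both among the 9, carry identical values and so hold 1 measurement, and the count was 7 with a pseudocount of 1. As for the labelled tissue, 9 of 10 oligodendrocyte markers (all but MBP), 6 of 10 astrocyte markers (GFAP, AQP4, SLC1A3 and S100B have no entry) and 8 of 10 neuron and axon markers (all but SNAP25 and NEFM) are listed. At least 2-fold lower in SCI were 7, 5 and 2 of them, at least 2-fold higher were 0 in each list, and the median log2 ratios were −1.62, −1.36 and −0.38. The summed level of the neuron and axon markers was 1583 FPKM in No-SCI and 1596 FPKM in SCI, most of it from GAP43, a growth cone protein, at 1275 and 1406 FPKM. The part of these differences in the values of the members was not tested either.

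The 5 other entries nearest to the median point of the members over both log2 values were DKC1, IER5, CENPT, TXNDC5 and TMEM91, at distances of 0.0035 to 0.074 on the log2 scale. DKC1, the gene of dyskerin, had 9.13 FPKM in No-SCI and 22.9 FPKM in SCI, against 9.13 and 23.0 FPKM for that point. With 2 group values per gene, such nearness says only that the levels are alike.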

How the data were processed

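Per the labels and the methods of the study, the authors depleted ribosomal RNA, prepared stranded libraries, cut every library to the read number of the shallowest, and ran STAR 2.5.4b on the rn6 genome and then Cuffdiff of cufflinks 1.3.0, normalizing by upper quartiles. Each deposited FPKM value is the authors' estimate for a whole group. The table also holds the authors' p-values and q-values, the ratio as a fold change, and its log2 value. These 4 columns hold the authors' own comparison and were not used.

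Log2 ratios (SCI over No-SCI) were taken with no pseudocount, and a gene was counted as higher or lower from a fold of 2. No library has a value of its own, so no test, SD or removal of a replicate was possible. The methods state the same read depth for every sample, and the table does not give the counts behind a value. Samples were grouped by their titles. The 13 repeated symbols were represented by the entry with the larger mean. Of 12758 symbols, 11974 matched a GRCr8 gene symbol and 253 a synonym.

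No value lies below 1. In the deposited No-SCI values, 86.9% of those between 1 and 2 but 37.6% of those between 2 and 3 carry 6 decimals. A drop in this direction is what adding 1 to an estimate of 6 digits would give. The drop was smaller at higher values, where 79.8% of those between 10 and 11 and 64.9% of those between 11 and 12 carry 5 decimals. The sources used here do not state whether 1 was added. At least 1 value each of DCN, OGN, PRELP, ASPN and OMD carries more digits than an estimate of 6 digits plus 1 would.

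The named genes are the listed members, the other listed genes of the family, for other lists the 3 largest differences past 2-fold in each direction and the 3 most abundant in No-SCI, and the 5 entries nearest the members (not all are printed). The members and lists were chosen with earlier results of these data known. CENPP and ASPNL1 were chosen after their values were seen. Alternatives were 3 scalings, pseudocounts of 1 and 0.1, folds of 1.3, 1.5 and 4, a mean of at least 5 FPKM, summed repeated entries and, added later, subtraction of 1. The ratios and counts were tested on simulated data. Python 3.11.15, numpy 2.4.6, pandas 2.3.3 and matplotlib 3.10.9 were used.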

Additional observations from a re-analysis of the deposited data

How the results depend on the processing

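No listed member changed sign under the 3 scalings, the 2 pseudocounts, the summing of repeated entries or the subtraction of 1. The median log2 ratio of the members ran from 1.24 with a pseudocount of 1 to 1.76 when entries with a mean under 5 FPKM were left out. The count of members at least 2-fold higher was 4 or 5 of 8 in all scalings and pseudocounts. The share of all entries past 2-fold was not taken under these settings, and a scaling shifts every entry alike. The count of members moved to 7 at a fold of 1.3, where 1 member was lower, and to 2 at a fold of 4. The summed level was 3.06-fold higher without DCN, in place of 4.73-fold. BGN passed 2-fold with median centring and equal upper quartiles, and ASPN with 1 subtracted. Centring the median of all entries at 0 adds 0.12 to every log2 ratio, and equal upper quartiles add 0.10. Of 486 alternative values of the other lists, 403 stayed within 1.5 times, or past 2-fold for medians that were past it as deposited, and none reversed a difference past 2-fold. No paired analysis was possible because the groups share no replicate number and the values are per group, which also means that libraries could not be left out in turn. Low values limit ASPN, OMD and FMOD most, since they lie nearest to 1 FPKM.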

Other observations

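Other cell types that can make members of the family were listed beside the fibroblasts. Of 12 mural cell markers 11 are listed, 0 at least 2-fold higher and 1 at least 2-fold lower, and their median log2 ratio of −0.03 flips in sign under each of the 3 scalings. Of 12 endothelial markers 9 are listed, 3 at least 2-fold higher and 1 at least 2-fold lower, with a median log2 ratio of 0.17 that moves to 1.11 when entries with a mean under 5 FPKM are left out. Of 10 microglia and macrophage markers all 10 are listed, 1 at least 2-fold higher and 3 at least 2-fold lower (2 under each of the 3 scalings and both pseudocounts), with a median log2 ratio of −0.31. Of 19 cartilage, bone and tendon markers, tissues in which CHAD, OMD and FMOD are abundant, 7 are listed, 1 at least 2-fold higher and 2 at least 2-fold lower, with a median log2 ratio of 0.77 that turns to −0.25 when entries with a mean under 5 FPKM are left out. By any amount, 4 of these 7 markers were higher in SCI and 3 lower. ALPL had 3.34 and 8.01 FPKM (log2 ratio 1.26), and COMP, SCX and MKX had log2 ratios of 0.77, 0.84 and 0.81. With 1 subtracted, 4 of the markers were at least 2-fold higher and 1 at least 2-fold lower. The summed level of the 7 was 49.3 FPKM in No-SCI and 32.2 FPKM in SCI. Most of the No-SCI sum came from SOX9, which astrocytes also express, at 33.1 and 9.77 FPKM. ACAN, COL2A1, COL9A1, COL10A1, IBSP and TNMD of this list have no entry, and BGLAP had 2.76 FPKM in No-SCI and is listed at 1 in SCI. The glial markers GFAP and MBP have no entry either, so a missing entry does not show that RNA was absent.

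Of 9 Schwann cell markers 7 are listed, 3 at least 2-fold higher and 1 at least 2-fold lower, with a median log2 ratio of 0.60. PRX, the gene of periaxin, a protein of myelinating Schwann cells, had 1.96 FPKM in No-SCI and 7.55 FPKM in SCI (log2 ratio 1.95). SOX10, which oligodendrocytes also express, had 29.5 and 11.6 FPKM (−1.35). With entries of a mean under 5 FPKM left out, the counts at least 2-fold lower were 0 for the mural and endothelial markers and 1 for those of cartilage, bone and tendon, and the count at least 2-fold higher was 1 for the Schwann cell markers. The part of these cell types in the values of the members was not tested.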
